A study of Homo sapiens with 6 samples.

Results

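Bone morphogenetic protein (BMP) ligands were followed here as transcripts of 10 genes, BMP2, BMP3, BMP4, BMP5, BMP6, BMP7, BMP8A, BMP8B, GDF6 and GDF7. They were picked by name, as the rows whose Ensembl identifier carries one of these symbols in GENCODE 44, out of 19977 genes counted in every library. All 10 passed the filter of at least 10 counts over the 6 libraries. The transcripts came from NCRM-1, a human induced pluripotent stem cell line labelled as wild type, which was made from CD34+ cells of cord blood by episomal reprogramming, so the findings concern 1 line. Single cells were seeded into vertical wheel bioreactors, where they formed aggregates. Culture lasted 4 days in both groups, and 50% of the medium was replaced on day 2. The PEG and HS group (3 libraries) grew in E8 medium with 10 mg/ml polyethylene glycol and 0.1 µg/ml heparin sodium salt. The Control group (3 libraries) grew in E8 without both additives.

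One free-text label describes PEG with heparin for all 6 libraries, and the treatment tag of each was used instead. The labels read as 1 bioreactor per medium, so the medium cannot be told apart from the vessel, and p-values measure only the spread between these samples, which may be technical. Libraries held 26991279 to 36185138 counts. Correlations between libraries were 0.991 to 0.992 within a medium and 0.986 to 0.988 between media. Of 16505 genes tested with edgeR's quasi-likelihood test, 25.3% were called at a Benjamini-Hochberg adjusted p under 0.05, 13.1% lower and 12.2% higher in PEG and HS. This share is the background against which each count below is given.

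BMP ligands are secreted dimers of the TGF-beta family. They bring together type I and type II serine/threonine kinase receptors, which phosphorylate SMAD1, SMAD5 and SMAD9. These enter the nucleus with SMAD4 and switch on targets such as the ID genes. Secreted antagonists such as noggin, chordin, gremlin and follistatin hold ligands away from the receptors. Several BMPs, BMP2, BMP4 and BMP7 among them, bind heparin and heparan sulfate. In human pluripotent cells, added BMP4 drives differentiation towards mesoderm and extraembryonic fates, and BMP signalling opposes neural fate.

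RefSeq promoter windows (250 bases before a transcript start, GRCh38.p14) were used for 6 of the 10 ligands. These were BMP4, BMP5, BMP6, BMP8A, BMP8B and GDF7. The other 4 ligands were not searched for motifs. The windows of BMP4 and BMP6 are shown because, of the 6 ligands searched, these are the ones that fell in PEG and HS. The BMP4 window shown, the furthest upstream of those used, is chr14:53955051-53955300 on the minus strand. It lies within the span of the gene, which an antisense lncRNA overlaps. The BMP6 window is chr6:7725849-7726098 on the plus strand and ends at the base before the gene. Capitals mark GGCGCC, a GC-rich element known to bind SMAD1 and SMAD5.

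BMP4: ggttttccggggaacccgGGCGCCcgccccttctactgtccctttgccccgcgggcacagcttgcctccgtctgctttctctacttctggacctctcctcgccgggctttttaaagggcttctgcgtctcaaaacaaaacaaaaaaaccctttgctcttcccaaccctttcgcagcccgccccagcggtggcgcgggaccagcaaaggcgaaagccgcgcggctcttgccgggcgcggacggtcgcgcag

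BMP6: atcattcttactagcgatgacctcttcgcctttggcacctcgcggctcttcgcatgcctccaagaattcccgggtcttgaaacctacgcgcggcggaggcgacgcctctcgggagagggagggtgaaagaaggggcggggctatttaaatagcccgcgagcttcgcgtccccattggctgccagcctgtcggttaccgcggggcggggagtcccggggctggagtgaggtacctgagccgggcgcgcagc

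The BMP4 window shown held GGCGCC once, at 63.6% GC, and the BMP6 window, at 64.4% GC, did not hold it. The windows of the other BMP4 starts did not hold it either. Each motif was searched on both strands. GGCGCC, which reads alike on both, occurred in 16.4% of 35116 RefSeq windows and in 1 of the 8 ligand windows used (BMP4 has 3). GGAGCC, another SMAD element, occurred in 30.6% of all windows and in 3 of 8 ligand windows, those of a downstream BMP4 start, BMP8A and GDF7. The longer palindrome GTCTAGAC, to which SMAD3 and SMAD4 bind, was in 0.182% of all windows and in 0 of 8. No ligand window used held more than 1 kind of these motifs, and that of BMP8A held GGAGCC 3 times.

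Taking the ligands as a group, 5 of 10 fell in PEG and HS, 0 rose and 5 did not pass the edgeR test. At an unadjusted p under 0.05 there were 7, of which BMP3 was higher, and no ligand rose with DESeq2 or limma-voom. The count of called ligands was 3 when PEG and HS replicate 1, Control replicate 1 or Control replicate 2 was left out, and 3 to 6 over all 6 such fits. The ligands that fell were BMP2, BMP4, BMP6, BMP7 and GDF6, beside a background of 13.1% of genes called lower. The ligands were chosen with earlier results of these data known, so this count is a description only. The median log2 fold change of the 10 was -0.35 (range -2.34 to 0.85), beside 0.0031 over all genes tested. BMP2 and BMP4 were called with a log2 fold change under -2, which 0.612% of genes tested were, a limit set after the values were seen. The PEG and HS libraries lay wholly below the Control libraries for 6 ligands and wholly above for 1 (BMP3), beside 39.3% of genes tested with no overlap in either direction. With 3 against 3 libraries, the smallest two-sided exact permutation p is 0.1, and each of these 7 ligands had that value. In bulk RNA, fewer cells of a type and less RNA per cell cannot be told apart.

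**Figure D1:**
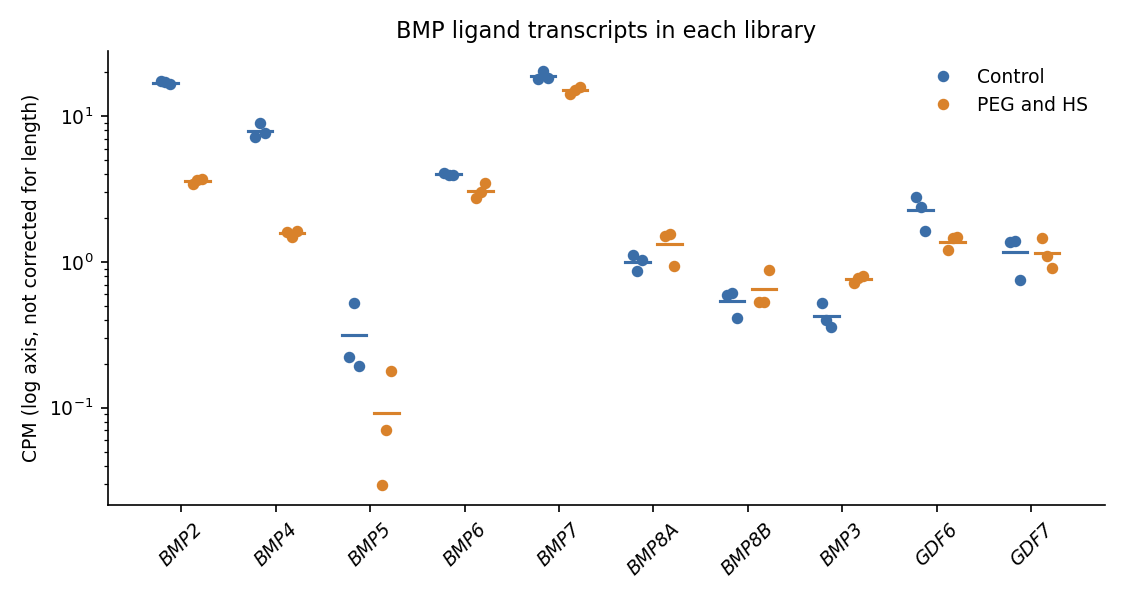
Levels in CPM (counts scaled to equal library size, log axis, not corrected for length) of the 10 BMP ligands in each library, with dots for libraries (blue Control, orange PEG and HS, 3 each) and bars for means. BMP2 and BMP4 show the widest gap, with Control near 17.0 and 7.97 CPM and PEG and HS near 3.59 and 1.57 CPM.

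BMP2 and BMP4 are close relatives that signal through the same receptors and form a subfamily of their own. BMP2 (ENSG00000125845, chr20:6767686-6780246) was at 3.44, 3.65 and 3.69 CPM in the PEG and HS libraries, against 17.3, 17.2 and 16.5 CPM in Control. The highest treated library lay far under the lowest Control library. Mean BMP2 was 3.59 ± 0.135 CPM (SD, n = 3) against 17.0 ± 0.435 CPM, a 4.74-fold fall. On the log2 scale the change was -2.24 (SE 0.075, 95% interval -2.40 to -2.08, edgeR adjusted p = 8.13e-12). Between 103 and 125 reads in the treated libraries and 468 to 597 in Control lay behind these levels.

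BMP4 (ENSG00000125378, chr14:53949736-53958761) also fell. Its level was 1.60, 1.49 and 1.63 CPM in the PEG and HS libraries, against 7.19, 9.02 and 7.70 CPM in Control. The treated libraries lay close together and the Control libraries spread more, with no overlap. The means were 1.57 ± 0.0742 and 7.97 ± 0.943 CPM (SD, n = 3), a 5.06-fold fall (log2 fold change -2.34, SE 0.13, 95% interval -2.61 to -2.07, edgeR adjusted p = 2.46e-09). An antisense lncRNA covers 506 of the 3096 exon bases of BMP4, and the sources used here do not say whether counting used strand. The log2 ratio of BMP2 to BMP4, each per kb of exon, was 0.999 ± 0.096 in PEG and HS and 0.907 ± 0.168 in Control (SD, n = 3). The difference of 0.091 was smaller than the spread between replicates (two-sided exact permutation p = 0.4, 0.533 adjusted over the 4 ratios examined, which were chosen after the values were seen).

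BMP5, BMP6, BMP7, BMP8A and BMP8B form a second subfamily, known for roles in kidney, skeleton, iron balance and the germ line. BMP7 (ENSG00000101144, chr20:57168753-57266641), needed for kidney and eye development, was at 14.2, 15.2 and 16.0 CPM in the PEG and HS libraries, against 18.1, 20.3 and 18.3 CPM in Control. Every treated library was under every Control library, yet the gap was narrow. Mean BMP7 was 15.1 ± 0.909 against 18.9 ± 1.21 CPM (SD, n = 3), a 1.25-fold fall (log2 fold change -0.32, SE 0.066, 95% interval -0.47 to -0.18, edgeR adjusted p = 0.00194). The log2 ratio of BMP2 to BMP7 was lower in PEG and HS by a difference of -1.92 and that of BMP4 to BMP7 by -2.01. Both had the smallest exact permutation p, 0.1 (0.2 adjusted over the 4 ratios), a design that cannot pass the threshold.

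BMP6 (ENSG00000153162, chr6:7726099-7881728), which controls hepcidin and so iron in the liver, also fell. It stood at 2.73, 3.01 and 3.49 CPM in the PEG and HS libraries, against 4.08, 3.94 and 3.94 CPM in Control. The libraries did not overlap, although the treated ones spread towards Control. The means were 3.07 ± 0.384 and 3.98 ± 0.0808 CPM (SD, n = 3), a 1.29-fold fall (log2 fold change -0.37, SE 0.13, 95% interval -0.65 to -0.097, edgeR adjusted p = 0.0464). The opposite-strand gene TXNDC5 covers 212 of the 3784 exon bases of BMP6. The call was close to the limit. It was lost with DESeq2 (adjusted p = 0.135), and in edgeR when any 1 library other than PEG and HS replicate 3 was left out (adjusted p 0.0852 to 0.175, log2 fold changes -0.38 to -0.29). The BMP6 to BMP7 ratio differed by -0.058 on the log2 scale, with an exact permutation p of 0.6 (0.6 adjusted).

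BMP5 (ENSG00000112175, chr6:55753653-55875590), known from the short ear mouse, was near the limit of detection. Its 39 reads were spread as 1, 2 and 6 in PEG and HS and as 6, 17 and 7 in Control. These equal 0.0297, 0.0708 and 0.177 CPM against 0.222, 0.523 and 0.194 CPM, where 3 reads are worth 0.0831 to 0.111 CPM. No treated library reached the lowest Control level, but Control replicate 2 held 17 of the 39 reads. The log2 fold change of -1.70 (SE 0.66, 95% interval -3.11 to -0.30) did not pass the test (edgeR adjusted p = 0.072). It passed when PEG and HS replicate 3 was left out (log2 fold change -2.60, adjusted p = 0.0337) and was -1.11 without Control replicate 2 (adjusted p = 0.335).

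BMP8A (ENSG00000183682, chr1:39491636-39529869) and BMP8B (ENSG00000116985, chr1:39757182-39788865), a pair of near copies with roles in germ cells, share 16.9% and 19.8% of their 31-base words with each other. Their coding sequences hold an identical run of 488 bases that starts at coding base 328 in both. Its first 120 bases, read from GENCODE 44 transcripts, are printed because reads from them fit both genes.

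BMP8A and BMP8B: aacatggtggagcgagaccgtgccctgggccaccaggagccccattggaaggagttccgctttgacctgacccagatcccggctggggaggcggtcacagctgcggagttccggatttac

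BMP8A was at 1.51, 1.56 and 0.946 CPM in the PEG and HS libraries, against 1.11, 0.862 and 1.03 CPM in Control. BMP8B was at 0.534, 0.531 and 0.886 CPM in the PEG and HS libraries, against 0.593, 0.616 and 0.416 CPM in Control. In both genes the media overlapped, and PEG and HS replicate 3 stood apart from the other treated libraries, low for BMP8A and high for BMP8B. The log2 fold changes were 0.42 for BMP8A (SE 0.25, 95% interval -0.12 to 0.96, edgeR adjusted p = 0.26) and 0.28 for BMP8B (SE 0.34, 95% interval -0.45 to 1.01, adjusted p = 0.603). How reads that fit both were counted is not given, so the pair was also added up. PPIEL and PPIE, on the opposite strand, cover 416 of 5636 exon bases of BMP8A and 80 of 4826 of BMP8B. The 336 reads of the sum gave a log2 fold change of 0.37 (SE 0.18, 95% interval -0.011 to 0.75, edgeR adjusted p = 0.151).

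BMP3 differs from the other BMPs in role, since it opposes BMP signalling in bone. It was the single ligand that stood wholly higher in PEG and HS. BMP3 (ENSG00000152785, chr4:81030708-81057627) was at 0.712, 0.779 and 0.798 CPM in the PEG and HS libraries, against 0.519, 0.400 and 0.360 CPM in Control, from 13 to 27 reads a library. All treated libraries were above all Control libraries. The means were 0.763 ± 0.0452 and 0.426 ± 0.0825 CPM (SD, n = 3). The log2 fold change of 0.85 (SE 0.32, 95% interval 0.17 to 1.52) did not pass the test (edgeR adjusted p = 0.0637), but did under both stricter filters on low counts (adjusted p = 0.04 and 0.0407).

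GDF6 and GDF7 belong to a subfamily that shapes joints, tendons, the eye and the dorsal spinal cord. GDF6 (ENSG00000156466, chr8:96142333-96160806) was at 1.22, 1.45 and 1.48 CPM in the PEG and HS libraries, against 2.78, 2.40 and 1.64 CPM in Control. Control replicate 3 was close to the treated libraries, and the media still did not overlap. The means were 1.38 ± 0.144 and 2.27 ± 0.583 CPM (SD, n = 3), a 1.63-fold fall (log2 fold change -0.70, SE 0.22, 95% interval -1.17 to -0.24, edgeR adjusted p = 0.0259). The call was lost without PEG and HS replicate 1 (adjusted p = 0.102), without Control replicate 1 (0.114) or without Control replicate 2 (0.081).

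GDF7 (ENSG00000143869, chr2:20667144-20679243), which the roof plate of the spinal cord makes, was at 1.45, 1.10 and 0.916 CPM in the PEG and HS libraries, against 1.37, 1.39 and 0.748 CPM in Control. The media overlapped. An antisense lncRNA covers 679 of its 9267 exon bases. The means of 1.16 ± 0.273 and 1.17 ± 0.364 CPM (SD, n = 3) left a log2 fold change of 0.0014 (SE 0.27, edgeR adjusted p = 0.999). The 95% interval of -0.58 to 0.59 leaves room for a change in either direction.

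**Figure D2:**
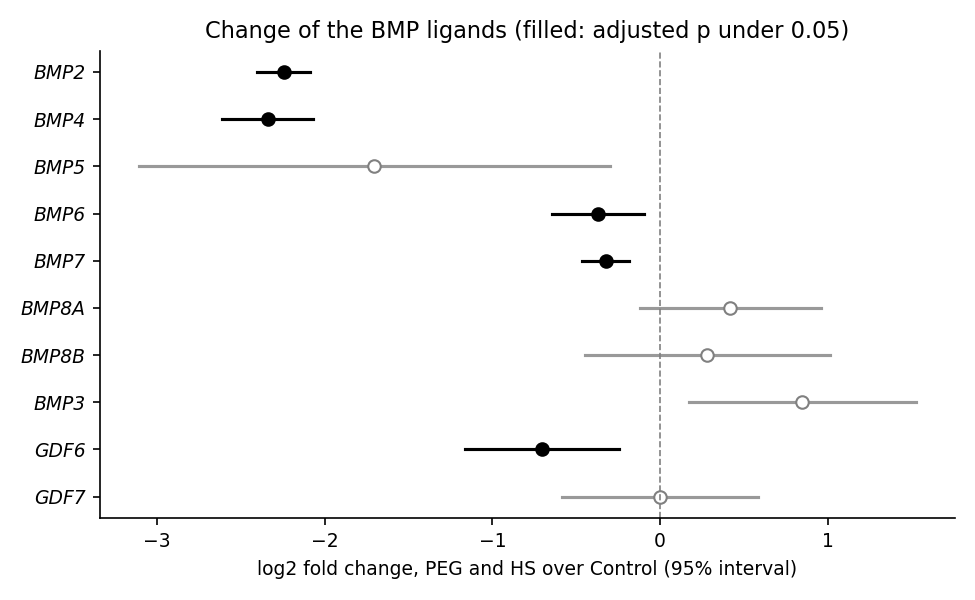
Log2 fold change of each BMP ligand, PEG and HS over Control, with 95% intervals from the edgeR fit that are not adjusted for multiple tests. Filled points passed an adjusted p under 0.05: BMP2 (-2.24) and BMP4 (-2.34) lie far left of GDF6 (-0.70), BMP6 (-0.37) and BMP7 (-0.32), and the BMP5 interval runs from -3.11 to -0.30.

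The order of the ligands by level also differed between the media. Levels of different genes were compared as CPM per kb of exon, over the union of each gene's GENCODE 44 exons. In Control, BMP2 led at 4.81 ± 0.123 CPM per kb (SD, n = 3), followed by BMP7 at 3.49 ± 0.222, BMP4 at 2.57 ± 0.304, BMP6 at 1.05 ± 0.0214 and GDF6 at 0.612 ± 0.157. On this length, each of these lay apart from the next in all 3 libraries. Of the lower ranks, BMP8A at 0.177 CPM per kb was apart from GDF7. From GDF7 down through BMP8B and BMP5 to BMP3 at 0.0701, each overlapped the next. In PEG and HS, BMP7 led at 2.79 ± 0.168 CPM per kb, above BMP2 at 1.01 ± 0.038, BMP6 at 0.812 ± 0.101, BMP4 at 0.507 ± 0.024 and GDF6 at 0.372 ± 0.0388. These 5 were again each apart from the next. From BMP8A at 0.237 through BMP8B and BMP3 to GDF7 at 0.125, each overlapped the next, and BMP5 was last and apart at 0.0233. When the longest transcript (1931 bases for BMP4) stood in for the exon union, BMP2 at 4.81, BMP7 at 4.71 and BMP4 at 4.13 CPM per kb in Control kept this order, but BMP2 overlapped BMP7 and BMP7 overlapped BMP4. In PEG and HS, BMP4 and BMP6 then changed places and overlapped, at 0.814 and 0.812 CPM per kb, and BMP7 and BMP2 still led, each apart from the next.

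Summed over the 10 ligands, the level per length was 5.81, 6.15 and 6.46 CPM per kb in PEG and HS and 12.99, 13.8 and 12.5 CPM per kb in Control. The treated sums all lay under the Control sums. BMP2 and BMP4 together went from 7.38 ± 0.342 CPM per kb in Control to 1.52 ± 0.0411 in PEG and HS (SD, n = 3). Their share of the sum was 55.5%, 56.2% and 57.4% in the Control libraries and 25.6%, 24.5% and 24.3% in the treated ones. BMP7 alone made up 26.6% of the sum in Control and 45.4% in PEG and HS, although its own level was lower there. These sums are descriptions of the members and carry no test.

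**Figure D3:**
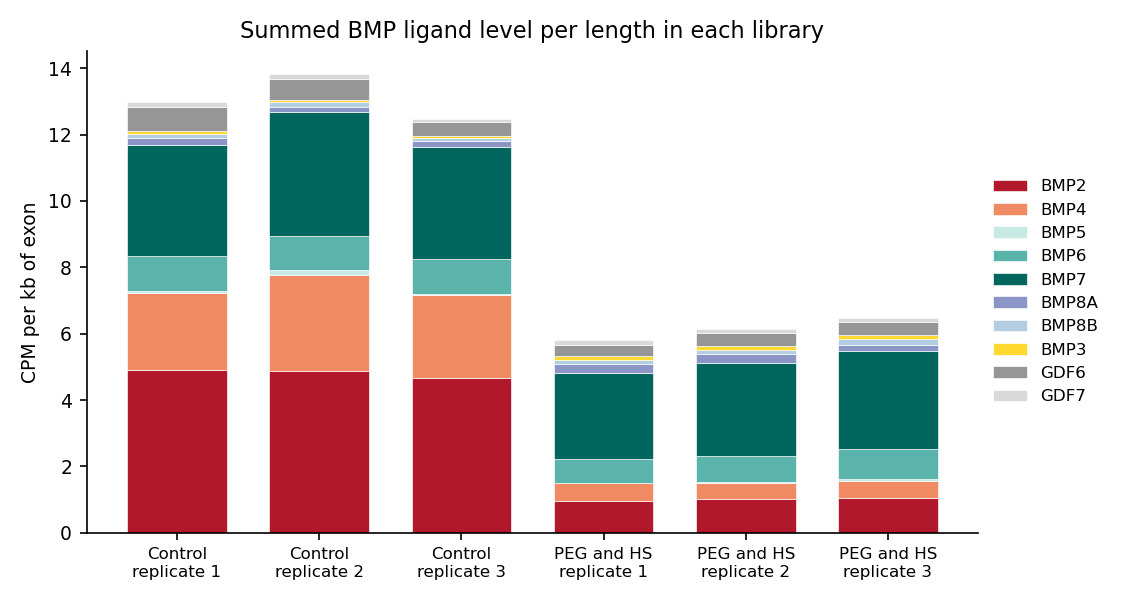
Stacked CPM per kb of exon of the 10 BMP ligands in each of the 6 libraries, with bar height as their sum. Control bars reach 12.5 to 13.8 CPM per kb and are mostly BMP2, BMP4 and BMP7, while PEG and HS bars reach 5.81 to 6.46 CPM per kb with BMP7 as the largest block.

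The other genes of the pathway were taken from lists by role and counted in the same fit. Libraries of the media did not overlap for 39.3% of genes tested, the background for each such statement on these lists. Among 11 other BMP and GDF ligands, 7 were tested, 1 fell and 1 rose, beside the background of 25.3% called in either direction. GDF11, an activin-type ligand of axial patterning, was at 58.7, 60.9 and 57.6 CPM in the PEG and HS libraries, against 84.6, 84.9 and 82.3 CPM in Control (log2 fold change -0.51, edgeR adjusted p = 2.47e-08). GDF3, a nodal-related ligand of pluripotent cells, was at 20.5, 19.9 and 19.7 CPM against 14.9, 15.5 and 15.0 CPM (log2 fold change 0.41, adjusted p = 5.48e-05). The media did not overlap for either gene, and they moved in opposite directions. The 4 ligands that were not tested, BMP10, BMP15, GDF2 and MSTN, had at most 1 read in any library. GDF1 shares its exons with CERS1, and its values are not compared here.

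Of 10 receptors and co-receptors, 2 fell, 2 rose and 6 did not pass the test, beside the background of 25.3% called in either direction. Their median log2 fold change was 0.042. The co-receptor RGMA was at 42.8, 47.3 and 43.5 CPM in the PEG and HS libraries, against 76.2, 78.2 and 73.5 CPM in Control, which did not overlap (log2 fold change -0.77, SE 0.042, edgeR adjusted p = 2.49e-09). Its relative RGMB had a log2 fold change of -0.17 (adjusted p = 0.0137). The type II receptor BMPR2 had one of 0.13 (adjusted p = 0.0291), and ACVR2B, a type II receptor and the most counted of the list, one of -0.068 (adjusted p = 0.161). The call of RGMB was lost without PEG and HS replicate 1 (adjusted p = 0.0585). That of BMPR2 was lost without any 1 library other than PEG and HS replicate 3 (adjusted p up to 0.121 over the alternatives). HJV, the other gene called higher, had 32 reads in all and lost its call whichever library was left out (adjusted p up to 0.112 over the alternatives).

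Of the 4 SMAD transducers, 2 fell and 2 did not pass the test, beside the background of 25.3% called in either direction. SMAD4, the shared partner, was at 102, 104 and 103 CPM in the PEG and HS libraries, against 127, 127 and 126 CPM in Control, with no overlap (log2 fold change -0.30, SE 0.028, edgeR adjusted p = 1.37e-06). SMAD9 was at 1.42, 1.10 and 1.36 CPM against 1.93, 2.12 and 2.16 CPM (log2 fold change -0.67, adjusted p = 0.015), a call lost without PEG and HS replicate 2 or Control replicate 3 (adjusted p up to 0.0557). SMAD1 (26.3 against 26.5 CPM) and SMAD5 (80.9 against 81.1 CPM), named after their values were seen, overlapped between the media.

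Among the 19 antagonists, 5 fell, 1 rose and 13 did not pass the test, beside the background of 25.3% called in either direction. Follistatin (FST), which binds activins and some BMPs, was at 16.0, 17.3 and 15.5 CPM in the PEG and HS libraries, against 41.0, 44.1 and 41.7 CPM in Control (log2 fold change -1.38, SE 0.054, edgeR adjusted p = 4.81e-11). GREM1, a BMP2 and BMP4 antagonist, was at 2.05, 2.87 and 2.45 CPM against 4.26, 4.96 and 3.96 CPM (log2 fold change -0.85, adjusted p = 0.000583). Both fell with no overlap, so transcripts of ligands and of some of their antagonists were lower in the same libraries. TWSG1 (log2 fold change -0.45, adjusted p = 3.92e-06) and FSTL1 (-0.29, adjusted p = 6.37e-07) fell less. BAMBI, a decoy receptor, rose (log2 fold change 0.29, adjusted p = 0.00226). The classical antagonists NOG (log2 fold change 0.33, adjusted p = 0.612) and CHRD (0.11, adjusted p = 0.79), named after their values were seen, had overlapping libraries. The fifth call, FSTL3, had an adjusted p of 0.0489 and lost its call in 10 of 15 alternatives, among them leaving out any 1 library other than PEG and HS replicate 2 (adjusted p up to 0.181).

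Targets of the pathway were read from 16 BMP-SMAD target genes. Of these, 8 fell, 2 rose and 6 did not pass the test, beside the background of 25.3% called in either direction. The median log2 fold change of the 16 was -1.07. It lies between MSX1 (-0.98, 45 reads) and DLX3 (-1.15, 77 reads), both under 1 CPM, not called and named after their values were seen. ID1, an inhibitor of basic helix-loop-helix factors, was at 64.1, 66.2 and 68.7 CPM in the PEG and HS libraries, against 143, 163 and 150 CPM in Control (log2 fold change -1.20, SE 0.045, edgeR adjusted p = 3.17e-11). ID4 was at 8.16, 9.02 and 8.24 CPM against 34.7, 39.1 and 37.0 CPM (log2 fold change -2.13 with SE 0.064, adjusted p = 3.17e-12). Neither overlapped between the media. ID2 also fell (log2 fold change -0.74, adjusted p = 6.06e-09), whereas ID3, at 89.6 against 89.7 CPM, overlapped, both named after their values were seen. TFAP2A, a factor of surface ectoderm and amnion, was at 0.890, 0.566 and 0.355 CPM against 5.97, 6.25 and 5.79 CPM (log2 fold change -3.30 with SE 0.20, adjusted p = 9.84e-09). GATA2 fell as well (log2 fold change -1.23, adjusted p = 0.00147). The called genes that rose were BAMBI and SMAD7, the latter an inhibitory SMAD that TGF-beta and activin signals also induce. SMAD7 was at 39.6, 41.8 and 40.9 CPM against 25.1, 25.4 and 23.6 CPM (log2 fold change 0.73, adjusted p = 1.37e-08). SMAD6 (log2 fold change -0.16, edgeR adjusted p = 0.309), ATOH8 (-0.41, adjusted p = 0.441) and GATA3 (-0.66, 21 reads) were not called. Their libraries overlapped between the media, and they were named after their values were seen. The call of HAND1, with 16 reads in all, was lost without PEG and HS replicate 2, PEG and HS replicate 3 or Control replicate 1 (adjusted p up to 0.0861). That of MSX2, with 111 reads, was lost without PEG and HS replicate 1 or Control replicate 2 (adjusted p up to 0.0749), and that of DLX5 rests on 38 reads.

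Proteases mature the ligands or cut chordin. Of 7, 1 rose and 6 did not pass the test, beside the background of 25.3% called in either direction. TLL2, a tolloid-like chordin protease, was at 8.66, 6.69 and 7.95 CPM in the PEG and HS libraries, against 5.67, 5.79 and 5.43 CPM in Control, with no overlap (log2 fold change 0.47, edgeR adjusted p = 0.00268). PCSK7, a proprotein convertase and the most counted of the list, had a log2 fold change of 0.071 (adjusted p = 0.222), and the media overlapped. FURIN, the best known BMP convertase, was at 52.2 against 52.7 CPM (log2 fold change -0.014, adjusted p = 0.825), named after its values were seen.

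**Figure D4:**
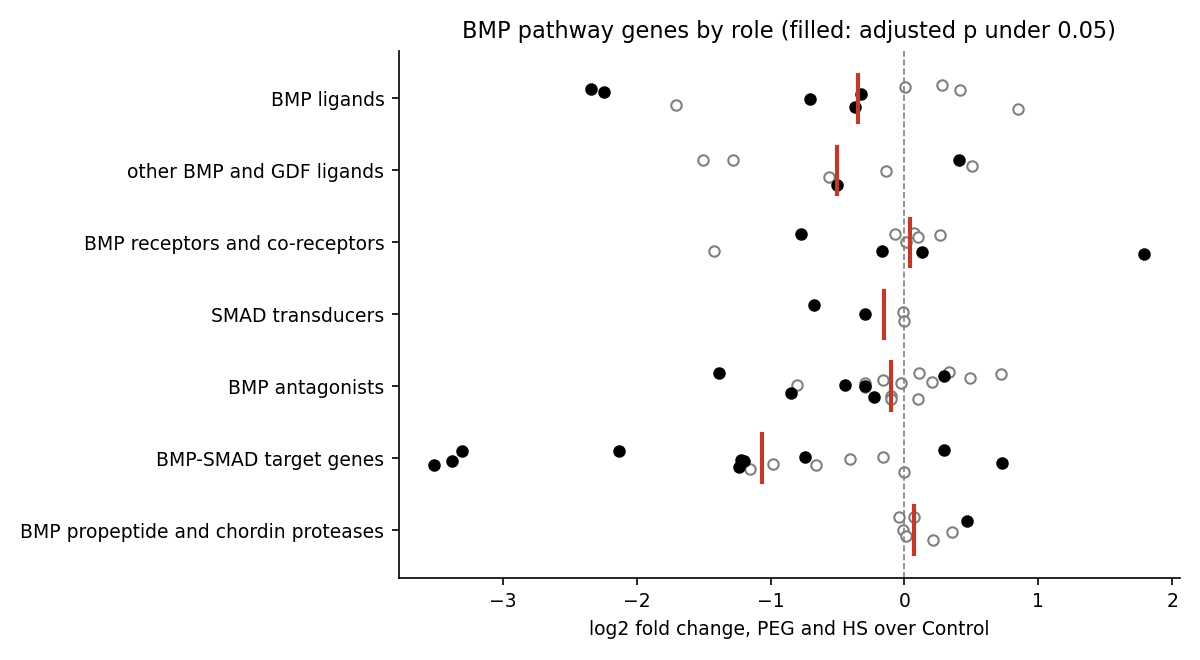
Log2 fold changes (PEG and HS over Control) of the tested genes in each BMP pathway list, 1 point a gene, filled where the adjusted p was under 0.05, with a red bar at each list's median. The median sits at -1.07 for BMP-SMAD target genes and at -0.35 for the BMP ligands, against 0.042 for the receptors and 0.071 for the proteases. That of the target genes lies between MSX1 and DLX3, which had few reads and were not called.

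Some markers of cell states also differed between the media, beside the background of 25.3% of genes tested called in either direction. The 10 pluripotency markers summed to 9107 to 9304 CPM in PEG and HS and to 8758 to 8905 CPM in Control, with 5 higher, 3 lower and 2 not called. Among 8 neuroectoderm markers, 7 fell and 1 did not pass the test, and their sum was 41.1 to 46.1 CPM against 159 to 165 CPM in Control. OTX2 was the largest part of both sums (mean 18.6 against 79.4 CPM). The 8 trophectoderm and amnion markers, 7 of them tested, summed to 6.97 to 7.36 CPM against 14.9 to 16.0 CPM, with 2 lower and 5 not called. The 2 lower, TFAP2A (mean 0.603 against 6.00 CPM) and KRT7 (3.76 against 7.10 CPM), made up most of the Control sum. GABRP, not called, was higher in every treated library (mean 2.29 against 1.69 CPM). The target genes share TFAP2A and GATA3 with the trophectoderm and amnion list. They share HAND1 with the primitive streak and mesoderm list, and DLX5 and MSX1 with the neural crest and placode list. The sum of 7 primitive streak and mesoderm markers was 7.98 to 9.46 CPM against 9.88 to 11.2 CPM. Of these, 2 were lower, HAND1 (16 reads in all) and TBX6, and 5 were not called. MIXL1, not called, was higher in every treated library (mean 1.95 against 1.42 CPM). Of 6 definitive endoderm markers, 4 were tested and 0 were called. FOXA2 had the lowest edgeR adjusted p (0.0609), and the sum of the 6 was 3.11 to 3.32 CPM against 4.02 to 4.67 CPM. Among 7 neural crest and placode markers, 2 fell and 1 rose, and their sum was 57.3 to 61.3 CPM against 50.0 to 52.2 CPM. FOXD3, which rose, made up most of that sum, and the other 6 markers summed to 6.94 to 7.29 CPM against 9.30 to 9.85 CPM. The defining markers SOX17, CDX2 and GATA4 had 0 to 3 reads in every library. The part of these states in the ligand changes was not tested.

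Across the 6 libraries, the genes whose log2 CPM ran closest to BMP2, BMP4, BMP6, BMP7 and GDF6 were looked up. These 5 ligands had at least 1 CPM in every library of 1 medium, as did the 13457 genes searched. Pearson's r is given as a description, since libraries of both media enter. Any gene that fell by much more than its spread between replicates scores high, whatever the size of its fall. For BMP2 the closest were SPARC, PCDH18 and ARID1B (r = 0.9999, 0.9997 and 0.9995). PCDH18, a protocadherin, was at 18.3 ± 0.656 CPM with the additives, against 64.5 ± 0.462 CPM in Control (SD, n = 3). SPARC and ARID1B fell far less than BMP2, with log2 fold changes of -0.33 and -0.16. For BMP4 they were FGFR3, NYNRIN and PLEKHH3 (r = 0.999 for each), and FGFR3, an FGF receptor, was at 13.8 ± 0.477 against 55.4 ± 3.27 CPM. NYNRIN and PLEKHH3 fell far less than BMP4, with log2 fold changes of -0.39 and -0.35. BMP7 ran closest to PLIN3, CTSD and ILRUN (r = 0.998, 0.998 and 0.997). BMP6 ran closest to EPS8L2, LCMT1 and COX19 (0.993, 0.991 and 0.991), and GDF6 to DPP7, USF2 and COL2A1 (0.997, 0.995 and 0.994).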

How the data were processed

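Polyadenylated RNA of 6 NCRM-1 samples was sequenced from stranded libraries. Per the methods and the submitters' processing notes, reads were trimmed with Trim Galore 0.6.7 and mapped to GRCh38 with STAR 2.6.1 within nf-core/rnaseq. The authors deposited raw counts per gene, 1 file a library. The counting step, its use of strand and the annotation release are not given in the sources used here. Of 19977 Ensembl identifiers, 19916 matched GENCODE 44, which gave symbols and coordinates.

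Genes that reached 10 counts summed over the 6 libraries entered edgeR 4.0.16 in R 4.3.3 (TMM, quasi-likelihood F test, no covariate, Benjamini-Hochberg adjustment over all genes tested, called at an adjusted p under 0.05). The common biological coefficient of variation was 3.12%, which resolves small changes in well-counted genes but not in ligands with few reads. CPM used TMM-scaled library sizes. Each standard error is the size of the log2 fold change over the root of F. The 95% intervals come from this fit and include the spread between replicates, whereas the limit from 3 counts covers counting error only.

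Members and lists were chosen with earlier results of these data known. Named genes were the members, in each list the 3 largest called changes at 1 CPM or more and the most counted gene, and the 3 genes most like each member with at least 1 CPM in every library of 1 medium. Others are said to be named after their values were seen. Replicate numbers do not pair the samples.

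Alternatives were DESeq2 1.42.0, limma-voom (limma 3.58.1), other normalizations and filters, a replicate block and each library left out. Scripts were tested on simulated data.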

Additional observations from a re-analysis of the deposited data

How the results depend on the processing

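BMP2, BMP4 and BMP7 kept their direction and their call in 15 of 15 alternatives, with log2 fold changes of -2.27 to -2.21, -2.41 to -2.24 and -0.37 to -0.27. Of 149 recomputed ligand fold changes, 128 kept their direction and side of the threshold, and of 171 recomputed counts and ranks, 155 stayed within 1.5 times the reported value. The causes of the other moves were not tested, apart from those that the construction of an alternative fixes. Tested against a 1.5-fold change, which asks for more than a change from 0, 264 of all genes were called (234 lower, 30 higher) in place of 4173, and 2 ligands (BMP2 and BMP4) in place of 5. Leaving out 1 library, which lowers the number of samples, gave 3 to 6 called ligands, with 3 without PEG and HS replicate 1, Control replicate 1 or Control replicate 2. It gave 1 to 4 called receptors (2 with DESeq2, 4 in the report) and 1 to 2 called SMADs. BMP6 lost its call with DESeq2 (-0.37), with library size alone (-0.36, adjusted p = 0.05002), with the replicate block (-0.37, adjusted p = 0.0501) and in 5 of the 6 fits that leave out 1 library (-0.38 to -0.29, within -0.48 to -0.29 over all 6). GDF6 lost its call in 3 of those 6 fits (-0.66 to -0.55, within -0.90 to -0.55 over all 6). BMP3 gained a call with at least 10 counts in 3 libraries (0.85) and with filterByExpr (0.85). BMP5 ranged from -2.60 to -1.11 without single libraries, was not tested under those 2 filters and had no adjusted p in DESeq2. BMP8B ranged from -0.014 to 0.41, turning sign without PEG and HS replicate 3. GDF7, with no difference to start from, turned sign with DESeq2 (-0.0053), RLE (-0.000398), upper quartile scaling (-0.0097), filterByExpr (-0.0020) and without single libraries (-0.25 to 0.15). With the longest transcript as length, 2 ligands changed rank in PEG and HS. Of 24 called pathway genes, 17 kept their call in every alternative that tested them. Samples with the same replicate number did not deviate together (correlations -0.015, 0.028 and 0.060), 3 of 6 libraries correlated best with their own number, and the replicate block gave 4444 called genes.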
